A study of Mus musculus with 2 samples.

Results

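The 10 genes Epcam, Krt7, Krt8, Krt18, Krt19, Sox9, Cldn4, Cldn7, Cd24a and Tspan8 are expressed by the epithelium of the bile duct or belong to the keratins of simple epithelia. They were taken as a named list, with earlier results of these data known and with no limit on a measured value, and all 10 were among the 19059 genes counted in both libraries. The counts came from 1 liver library labelled AEG-1ΔMAC and 1 labelled AEG-1fl/fl. AEG-1fl/fl mice carry floxed alleles of Mtdh, the gene that encodes AEG-1, and AEG-1ΔMAC mice carry in addition LysM-Cre, which is active in myeloid cells and not meant to delete the gene in cholangiocytes or hepatocytes. All mice, on a C57BL/6/J background, were fed HF/HSD, a high-fat and high-sugar diet that causes steatohepatitis, from 7 weeks of age, and livers were taken at 27 weeks. The tissue was fixed and dissociated, and probes for each gene were hybridized and counted cell by cell. Each genotype had a single library and hence no replicate, the genotypes could not be tested against each other, and the sources used here do not give whether a library pools several livers.

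Bile ducts are lined by cholangiocytes, and hepatocytes make up most of the remaining liver. Keratin filaments are built from pairs of a type I and a type II keratin. Hepatocytes are known for the single pair of Krt8 (type II) and Krt18 (type I), while cholangiocytes add Krt7 (type II) and Krt19 (type I). Sox9 is a transcription factor of the developing duct that is also known from hepatocytes beside the portal tract. Epcam is an adhesion molecule, Cldn4 and Cldn7 are claudins of the tight junction, Tspan8 is a tetraspanin, and Cd24a is a surface glycoprotein that is also made by B cells and granulocytes. Chronic liver injury is known to be accompanied by the growth of small ducts, the ductular reaction.

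The genes lie on 5 chromosomes of GRCm38, the build called mm10 in the files, with positions from GENCODE. Krt7 (chr15:101411043-101430313, plus strand), Krt8 (chr15:101996698-102004482, minus strand) and Krt18 (chr15:102028180-102032027, plus strand) share chromosome 15, and 23697 bases separate Krt8 from Krt18. Cldn7 (chr11:69964779-69967885), Krt19 (chr11:100140810-100148665) and Sox9 (chr11:112782224-112787760) are on chromosome 11, Cd24a (chr10:43578284-43584265) and Tspan8 (chr10:115816832-115849893) on chromosome 10, Cldn4 on chromosome 5 (chr5:134945119-134946934) and Epcam on chromosome 17 (chr17:87635979-87651129). Counts were given per gene, so all values cover the whole gene and not an exon or UTR.

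Of the 10 genes, Cldn4 differed most between the libraries in cholangiocyte-like cells. The sequence before the RefSeq start (build GRCm38.p6) was read for Cldn4, the duct gene Epcam, and Krt8 and Krt18, which hepatocytes also express. Each is given 5′ to 3′ on the gene's own strand and ends where the GENCODE gene begins. Capitals mark the letters GGGCGG (a GC box) or TGANTCA (the AP-1 motif), searched on both strands.
Krt8, chr15:102004483-102004592, minus strand: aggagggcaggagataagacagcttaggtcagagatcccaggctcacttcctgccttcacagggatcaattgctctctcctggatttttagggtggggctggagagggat
Krt18, chr15:102027966-102028179, plus strand: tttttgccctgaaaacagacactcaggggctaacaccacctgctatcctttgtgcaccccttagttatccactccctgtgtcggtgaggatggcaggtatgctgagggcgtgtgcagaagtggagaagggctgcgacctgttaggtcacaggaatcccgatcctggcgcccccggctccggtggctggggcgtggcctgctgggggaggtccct
Epcam, chr17:87635729-87635978, plus strand: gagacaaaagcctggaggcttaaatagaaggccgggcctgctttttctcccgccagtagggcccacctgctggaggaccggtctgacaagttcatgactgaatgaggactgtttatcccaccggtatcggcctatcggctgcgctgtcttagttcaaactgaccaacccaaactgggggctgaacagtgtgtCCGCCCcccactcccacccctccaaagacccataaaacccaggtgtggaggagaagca
Cldn4, chr5:134946935-134947184, minus strand: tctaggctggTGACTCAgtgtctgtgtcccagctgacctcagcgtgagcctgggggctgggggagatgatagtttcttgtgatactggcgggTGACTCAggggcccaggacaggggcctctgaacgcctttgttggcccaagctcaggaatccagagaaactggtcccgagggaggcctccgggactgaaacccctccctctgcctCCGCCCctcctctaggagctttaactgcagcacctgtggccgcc

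The 250 bases before the start were searched in 8 windows of the 7 genes with an entry, which leaves out Krt19, Sox9 and Cd24a. GGGCGG occurred in windows of Epcam, Krt7, Cldn4 and Cldn7, and in 32.7% of the 32851 windows of all genes. Krt7 held 4 copies. The Krt8 and Krt18 windows held none. TGANTCA occurred in the Cldn4 window alone among the 8, with 2 copies, and in 6.75% of all windows. TATAAA was in none of the 8 windows and in 12.4% of all. These matches describe the letters only and were not set against the counts.

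Before any comparison, features of the libraries that touch every value were measured. The deposited counts summed to 79589511 in 2581 cells of the library labelled AEG-1ΔMAC and to 90440089 in 3535 cells of the library labelled AEG-1fl/fl. After the cell filter 2571 and 3508 cells remained, with a median of 12746 and 7682 counts, and 10 barcodes occurred in both libraries. Mtdh went against the labels. In macrophage-like cells it had 374 counts (133 CPM, counts divided by all counts of the class and scaled to 1000000) in the library labelled AEG-1ΔMAC and 151 counts (25.7 CPM) in the library labelled AEG-1fl/fl, a log2 ratio of 2.37 (95% interval 2.10 to 2.66). Macrophage-like cells, which LysM-Cre targets, numbered 229 of 2571 and 570 of 3508. Whether the labels were exchanged was not tested, and every direction below is given by the labels as deposited. RNA of hepatocytes was counted in all cell classes. The 12 hepatocyte markers (Alb and others) took 15.1% and 14.8% of the counts of hepatocyte-like cells, 11.3% and 9.03% in endothelial cell-like cells, and 7.43% and 4.84% in macrophage-like cells. No doublet caller was run, and doublets were kept.

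Cells were clustered without the 10 genes, without all other keratins and claudins, and without 12 further epithelial genes. Clusters were named from marker genes, and a name ends in -like because it was rebuilt in this way and can differ from the study's. The cholangiocyte-like cluster held 47 cells in the library labelled AEG-1ΔMAC and 117 in the library labelled AEG-1fl/fl, or 1.83% and 3.34% of the cells. All 9 of the cholangiocyte markers in the files, among them Spp1 (osteopontin), Cftr (a chloride channel) and Pkhd1 (a protein of the primary cilium), were over 2-fold higher there than in hepatocyte-like cells in both libraries. Of the 6 mesothelial markers, Gpm6a had 98 and 177 counts in this cluster, while Msln, Upk1b, Upk3b, Wt1 and Lrrn4 had none in the library labelled AEG-1ΔMAC and at most 25 in the other. Of the 10 leading genes of the cluster, 5 were members (Tspan8, Epcam, Cd24a, Krt19 and Cldn7) although none had been used to form it. Every cell of the cluster held at least 1 of the 7 duct genes (Epcam, Krt7, Krt19, Sox9, Cldn4, Cldn7 and Tspan8), and 14 of 47 and 50 of 117 cells held all 7. Hepatocyte-like cells numbered 1412 and 1353 in 5 clusters.

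The cholangiocyte-like cells were not free of hepatocyte RNA. The hepatocyte markers took 15.3% and 12.3% of their summed counts, about as much as in hepatocyte-like cells. This share came mainly from a few cells with many counts. Cells over 3 times the median total numbered 7 of 47 and 29 of 117 and held 68.5% and 79.2% of the counts of the cluster, and the largest cell had 417706 counts against a median of 14458. Without them the hepatocyte markers took 8.56% and 4.52%, and in the median single cell 6.16% and 3.68%. Values of the cluster are therefore given without these cells as well for part of the genes. Whether the large cells are doublets of a cholangiocyte and a hepatocyte was not tested.

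The first comparison asked how far each gene separated cholangiocyte-like from hepatocyte-like cells. Of the 10 genes, 8 were over 2-fold higher in cholangiocyte-like cells in both libraries, and Krt8 and Krt18 were not. Over all genes with at least 20 counts, 18.6% passed the same 2-fold limit in the library labelled AEG-1ΔMAC and 23.9% in the library labelled AEG-1fl/fl. The median log2 ratio of the 10 genes was 8.03 and 6.13, beside 0.25 and 0.40 over all genes. The plot of levels by cell class shows the same split, with 7 columns that are bright in the top row and mostly dark below it, Cd24a bright in a few more rows, and the 2 keratins bright throughout.

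**Figure D1:**
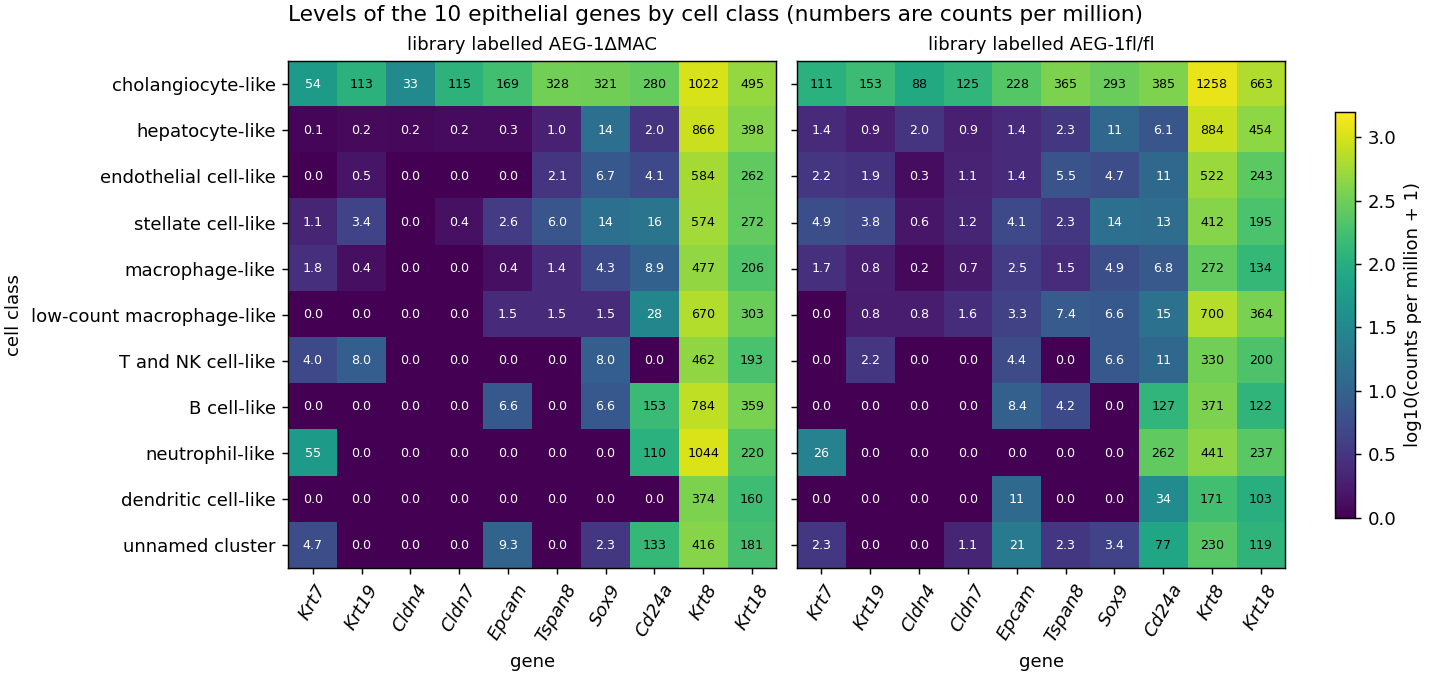
Level of each of the 10 genes (columns) in each cell class (rows) in CPM, printed in each field and coloured as log10(CPM + 1), with the library labelled AEG-1ΔMAC on the left and the library labelled AEG-1fl/fl on the right. Krt7, Krt19, Cldn4, Cldn7, Epcam, Tspan8 and Sox9 are highest in the cholangiocyte-like row, apart from 1 count of Krt7 in 7 neutrophil-like cells, while Krt8 and Krt18 are above 100 CPM in every row.

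Krt7 and Krt19, the keratins added by ducts, were close to absent from hepatocyte-like cells. Krt19 had 173 counts (113 CPM) in cholangiocyte-like and 14 counts (0.209 CPM) in hepatocyte-like cells under the label AEG-1ΔMAC, and 604 counts (153 CPM) and 61 counts (0.869 CPM) in the other library. These levels differed 542-fold (95% interval 315 to 1013) and 176-fold (135 to 233). Krt7 had 53.7 against 0.119 CPM and 111 against 1.44 CPM. Of all counts of Krt19 in a library, 86.1% and 87.3% fell in the cholangiocyte-like cluster, which is no more than 3.34% of the cells.

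The claudins and surface proteins behaved alike. Cldn7 had 115 against 0.239 CPM in the library labelled AEG-1ΔMAC and 125 against 0.898 CPM in the library labelled AEG-1fl/fl. Epcam differed most in the first library, 666-fold (408 to 1162), and reached 161-fold (131 to 201) in the second. For Tspan8 the levels were 328 against 0.954 CPM and 365 against 2.29 CPM. In cholangiocyte-like cells Cldn4 had the fewest counts of the 10 genes, 50 and 346, and in hepatocyte-like cells it had 11 and 140. Without the cells over 3 times the median total, the ratio of Epcam rose to 776-fold and 352-fold, and that of Cldn7 to 1489-fold and 281-fold, so the large cells lowered the contrast.

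Cd24a followed the duct genes but was not restricted to them. It stood at 280 and 385 CPM in cholangiocyte-like cells and at 2.04 and 6.10 CPM in hepatocyte-like cells. B cell-like cells had 153 CPM (96.9 to 229) and 127 CPM (85.4 to 181). Neutrophil-like cells had 262 CPM (188 to 356) in the library labelled AEG-1fl/fl, from 48 cells, and 2 counts in the 7 cells of the other library. The unnamed cluster, led by the proliferation genes Mki67 and Top2a and by Ccr7 (a chemokine receptor of migrating dendritic cells), had 133 and 77.0 CPM. The share of all Cd24a counts found in cholangiocyte-like cells was 57.1% and 68.0%, the lowest share among the 8 separating genes apart from Sox9. Epcam was second highest in the same unnamed cluster, with 4 counts (9.31 CPM) and 18 counts (20.7 CPM), and 12 of the 18 counts lay in 4 cells that also held Mki67 or Top2a.

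Sox9 separated both cell types least among the 8 genes. It stood at 321 against 13.9 CPM in the library labelled AEG-1ΔMAC and at 293 against 10.7 CPM in the library labelled AEG-1fl/fl, a 23.2-fold (20.7 to 25.9) and a 27.5-fold difference (25.1 to 30.2). Without the cells over 3 times the median total, the difference was 52.3-fold (44.5 to 61.6) and 82.8-fold (71.2 to 96.5). Of all Sox9 counts, 62.0% in the first library and 37.2% in the second came from hepatocyte-like cells. A count of Sox9 was found in 27.3% of hepatocyte-like cells (median total 24778) and 21.7% (24818), in endothelial cell-like cells in 7.14% (5072) and 3.24% (3932). With each cell thinned to 2000 counts, the shares were 2.30% and 1.76% against 1.12% and 0.466%, and in stellate cell-like cells 2.35% and 2.97%. By summed level, endothelial cell-like cells had 6.72 CPM (4.39 to 9.84) and 4.70 CPM (2.74 to 7.53), below hepatocyte-like cells in both libraries, and stellate cell-like cells had 13.6 and 13.9 CPM, a level that the intervals do not separate from that of hepatocyte-like cells in either library.

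Relative to the other duct genes, Sox9 stood higher in hepatocyte-like than in cholangiocyte-like cells. For each count of the 6 other duct genes together, cholangiocyte-like cells held 0.396 counts of Sox9 (95% interval 0.356 to 0.440) in the library labelled AEG-1ΔMAC and 0.274 (0.257 to 0.293) in the library labelled AEG-1fl/fl. Hepatocyte-like cells held 7.16 (5.96 to 8.67) and 1.20 (1.08 to 1.33). The intervals of both cell classes lie far apart in each library. This was not particular to hepatocyte-like cells. Stellate cell-like cells held 36 counts of Sox9 beside 36 of the 6 genes in the first library (interval of the ratio 0.612 to 1.63) and a ratio of 0.828 (0.553 to 1.23) in the second, macrophage-like cells 1.09 (0.441 to 2.73) and 0.659 (0.398 to 1.08) and endothelial cell-like cells 2.60 (1.21 to 6.04) and 0.378 (0.203 to 0.673), from 10 to 58 counts of the 6 genes, and only the last of these intervals reaches that of cholangiocyte-like cells. In periportal cells the ratio was 16.2 and 2.77, and in pericentral cells 2.07 and 0.309, the latter with an interval (0.237 to 0.399) that includes the cholangiocyte-like value. Few cells weighed on this last ratio. Of its 256 counts of the 6 genes, 48 of Cldn4, 17 of Epcam and 17 of Krt7 came from a single cell. The interval does not cover such clumping, and the ratio without that cell was not computed.

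The position of Sox9 along the liver lobule was measured next. Hepatocyte-like cells were ranked within each library by pericentral minus periportal markers and divided into tertiles of 470 or 471 and of 451 cells, which are ranges of a score and not cell types. In the library labelled AEG-1ΔMAC, Sox9 had 601 counts in the periportal, 237 in the middle and 93 in the pericentral tertile, or 22.8 CPM (21.0 to 24.7), 11.4 CPM (10.0 to 13.0) and 4.65 CPM (3.75 to 5.69). The library labelled AEG-1fl/fl gave 446, 224 and 79 counts, or 16.1 CPM (14.6 to 17.7), 10.8 CPM (9.47 to 12.4) and 3.62 CPM (2.87 to 4.52). Sox9 thus fell at each step from portal to central cells in both libraries, with no overlap of intervals. The log2 ratio of the pericentral over the periportal tertile was -2.30 (-2.63 to -1.98) and -2.15 (-2.51 to -1.80). A count of Sox9 was present in 43.3% and 33.7% of periportal and in 11.5% and 7.76% of pericentral cells, at median totals of 27680 and 25781 against 22717 and 24054 counts. The pericentral level lay within the intervals of endothelial cell-like cells, and the periportal level above them.

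No other member had this zonal pattern. Of the members with at least 20 counts over both tertiles, 1 of 5 in the library labelled AEG-1ΔMAC and 1 of 10 in the library labelled AEG-1fl/fl was over 2-fold lower in pericentral cells, in each case Sox9. Among all genes 2.47% and 2.2% passed this limit. Cd24a had 1.75 and 2.36 CPM in the pericentral and periportal tertile of the first library and 4.63 and 4.51 CPM in the second. Cldn4 had 68 pericentral and 9 periportal counts in the library labelled AEG-1fl/fl, and 48 of the 68 came from 1 cell that is described below. By cluster, Sox9 was highest in the hepatocyte-like cluster led by Sds and Hal (enzymes of periportal amino acid breakdown), at 26.3 and 19.0 CPM, and lowest in the cluster led by Slc1a2 and Glul (pericentral glutamate transport and glutamine synthesis), at 5.61 and 2.29 CPM.

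**Figure D2:**
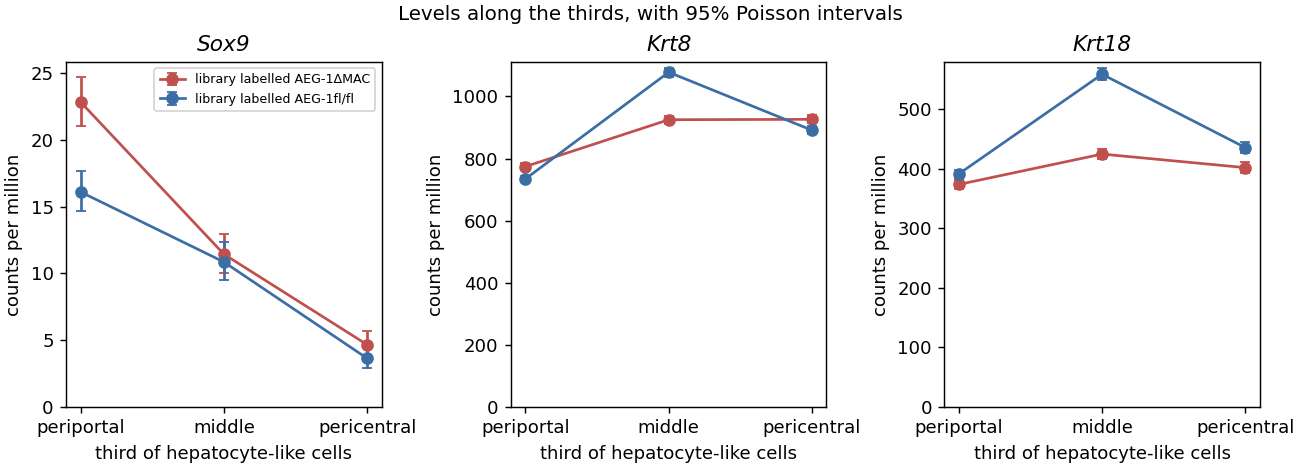
Level of Sox9, Krt8 and Krt18 in CPM (vertical axes, from 0) in the periportal, middle and pericentral tertile of hepatocyte-like cells, with 95% Poisson intervals, for the library labelled AEG-1ΔMAC (red) and the library labelled AEG-1fl/fl (blue). Sox9 falls from 22.8 and 16.1 CPM in the periportal tertile to 4.65 and 3.62 CPM in the pericentral tertile, while both keratins change by far less.

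Krt8 and Krt18 were the 2 members that hepatocyte-like cells held in nearly every cell. Krt8 had 58106 counts (866 CPM) in hepatocyte-like and 1562 counts (1022 CPM) in cholangiocyte-like cells of the library labelled AEG-1ΔMAC, and 62053 (884 CPM) and 4956 counts (1258 CPM) in the library labelled AEG-1fl/fl. The cholangiocyte-like level was higher by a log2 ratio of 0.24 (0.17 to 0.31) and 0.51 (0.47 to 0.55). For Krt18 the levels were 495 against 398 CPM and 663 against 454 CPM, with log2 ratios of 0.32 (0.21 to 0.42) and 0.54 (0.49 to 0.60). Without cells over 3 times the median total, the log2 ratio was 0.77 and 1.05 for Krt8 and 0.79 and 1.05 for Krt18. The 2 keratins of the pair kept similar proportions, with 2.06 and 1.90 counts of Krt8 per count of Krt18 in cholangiocyte-like and 2.18 and 1.95 in hepatocyte-like cells.

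Within hepatocyte-like cells the pair varied more by cluster than by zone. Among cells with at least 10000 counts, the middle 80% lay between 261 and 1279 CPM of Krt8 in the library labelled AEG-1ΔMAC and between 245 and 1519 CPM in the library labelled AEG-1fl/fl. Krt8 was highest, at 1342 and 1138 CPM, in the cluster led by Sprr1a, Fgf21 and Gdf15, genes known to be induced by cell stress, and lowest, at 452 and 388 CPM, in the cluster led by Nr1i3 and Mlxipl, transcription factors of drug and sugar metabolism. Krt18 followed with 601 and 588 CPM against 244 and 261 CPM. The cells of the stress-gene cluster had a median of 69238 and 81217 counts, the cells of the other 21019 and 19556. Krt8 was highest in the middle tertile of the library labelled AEG-1fl/fl, at 1078 CPM. Between the pericentral and periportal tertiles, Krt8 differed by a log2 ratio of 0.26 and 0.28 and Krt18 by 0.11 and 0.15. Without the stress-gene cluster, 3 of these 4 ratios changed sign. The zonal difference of the keratins was therefore not stable, whereas that of Sox9 kept its sign.

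All other cell classes also held Krt8 and Krt18, and the larger classes held them in about the proportion in which they held hepatocyte RNA. Krt8 in endothelial cell-like cells stood at 67.4% and 59.1% of the hepatocyte-like level, and the 12 hepatocyte markers at 75.4% and 61.2%. In stellate cell-like cells Krt8 was at 66.3% and 46.6% and the markers at 71.2% and 50.4%. Macrophage-like cells had 55.1% and 30.8% of Krt8 beside 49.3% and 32.8% of the markers. Over the non-epithelial classes with at least 500 counts of the keratin, the percentages of Krt8 and of the markers differed by at most 7.99 points (7 values) and those of Krt18 by at most 9.40 points (6 values). Whether these counts come from free RNA, doublets or a low expression of the keratins was not tested. In cholangiocyte-like cells, Krt8 exceeded the markers by 16.7 and 59.1 points and Krt18 by 23.2 and 62.7 points.

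**Figure D3:**
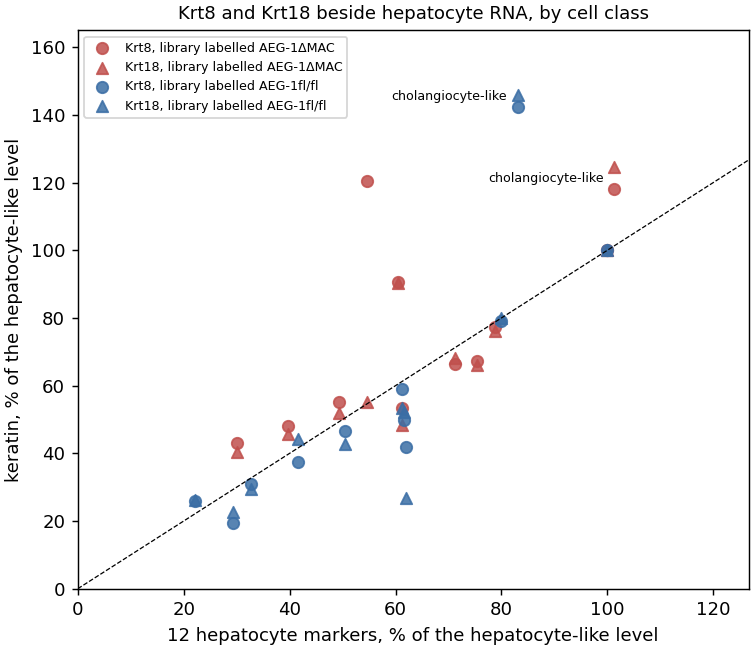
Summed level of Krt8 (circles) and Krt18 (triangles) in each cell class on the vertical axis against the 12 hepatocyte markers on the horizontal axis, both in % of the hepatocyte-like level of the same library, with the library labelled AEG-1ΔMAC in red and the library labelled AEG-1fl/fl in blue. The larger non-epithelial classes lie near the dashed line of equal percentages and the cholangiocyte-like points above it. The other points over 12 percentage points from the line include B cell-like cells (41 and 63 cells) and 7 neutrophil-like cells with 19 counts of Krt8. In the library labelled AEG-1ΔMAC they also include Krt8 of 5 dendritic cell-like and Krt18 of 55 T and NK cell-like cells.

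Hepatocyte-like cells with duct genes were counted next, to see whether some cells carried both programmes. At least 2 of the 7 duct genes were found in 40 of 1412 cells, 2.83% (exact binomial interval 2.03 to 3.84), of the library labelled AEG-1ΔMAC and in 112 of 1353 cells, 8.28% (6.86 to 9.88), of the library labelled AEG-1fl/fl. With each cell thinned to 2000 counts the shares were 0.00725% and 0.232%, and in macrophage-like cells (median total 6479 and 6529 counts) 0.161% and 0.139%. They were 0% and 0.0136% in endothelial cell-like and 0.0802% and 0.453% in stellate cell-like cells. As Sox9 made up 931 of 1061 and 749 of 1374 counts of the 7 genes in hepatocyte-like cells, the 6 other duct genes were examined on their own. At least 1 of them was found in 5.31% (4.20 to 6.61) and 14.3% (12.4 to 16.2) of hepatocyte-like cells, and in 1.79% and 3.47% of endothelial cell-like, 3.48% and 6.85% of stellate cell-like and 3.06% and 5.09% of macrophage-like cells. After thinning the shares were 0.391% and 1.55% in hepatocyte-like, 0.458% and 1.23% in endothelial cell-like, 0.535% and 2.11% in stellate cell-like and 1.19% and 1.50% in macrophage-like cells. At equal depth, the share of hepatocyte-like cells lay below all 3 of the other classes in the first library and between them in the second. These thinned shares have no interval. In the first library the other classes held only 187 to 295 cells at this depth, so the order of the classes is not settled. In the library labelled AEG-1fl/fl, Cldn4 made up 22.4% of the counts of the 6 genes in hepatocyte-like and 8.21% in cholangiocyte-like cells. Without the 2 cells of that library with the most Cldn4, it had 44 of 482 counts in hepatocyte-like cells. Cholangiocyte-like cells had 346 of 4216, so the higher share rested largely on 2 cells. The part of free RNA or doublets in these counts was not tested.

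**Figure D4:**
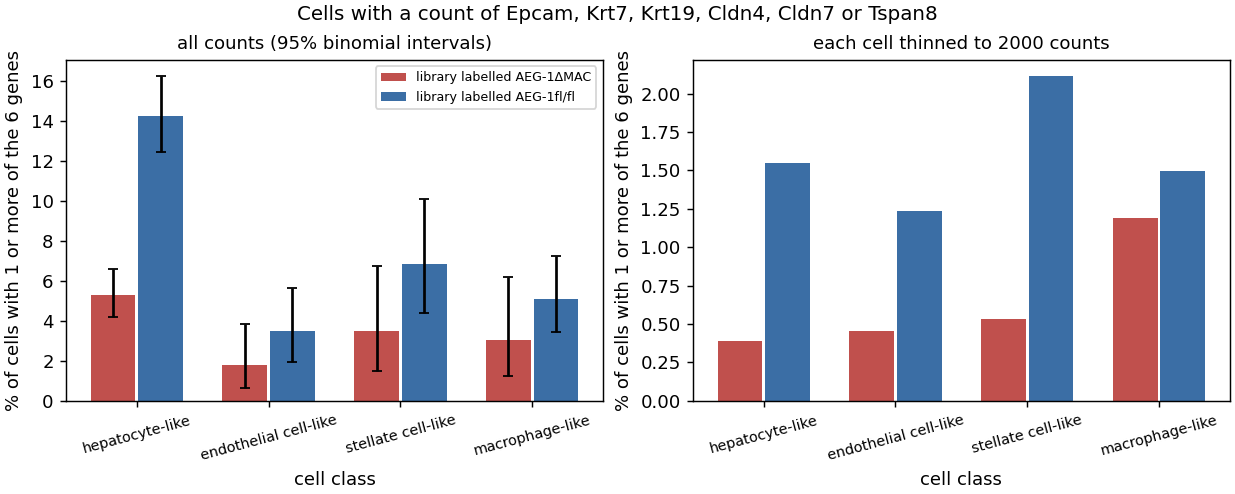
Share of cells (%, vertical axes) with at least 1 count of Epcam, Krt7, Krt19, Cldn4, Cldn7 or Tspan8 in 4 cell classes, with all counts and 95% binomial intervals on the left and with each cell thinned to 2000 counts on the right, for the library labelled AEG-1ΔMAC (red) and the library labelled AEG-1fl/fl (blue). With all counts hepatocyte-like cells stand highest at 5.31% and 14.3%, and after thinning they lie at 0.391% and 1.55%, among the other classes.

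Summed levels did not set hepatocyte-like cells apart either. The 6 genes together stood at 1.94 CPM (1.62 to 2.30) and 8.91 CPM (8.22 to 9.63) in hepatocyte-like, at 2.58 CPM (1.24 to 4.75) and 12.5 CPM (9.08 to 16.7) in endothelial cell-like, at 13.6 and 16.8 CPM in stellate cell-like and at 3.91 CPM (1.95 to 7.00) and 7.48 CPM (5.43 to 10.0) in macrophage-like cells, and at 812 and 1070 CPM in cholangiocyte-like cells. A few hepatocyte-like cells held a large part of these counts. The cells with 3 or more of the 6 genes numbered 4 and 16 and held 27.7% and 52.8% of the counts, with a median total of 130608 and 87072. All 4 and 15 of the 16 also held at least 2 of the cholangiocyte markers, against 30.6% and 39.3% of the cells with none of the 6 genes. The latter cells had a lower median total of 23803 and 21439 counts. The hepatocyte markers took 18.0% and 15.7% of the summed counts of the cells with 3 or more genes. In the cells with none they took 14.96% and 14.58%. For the median single cell of the library labelled AEG-1ΔMAC, the share was 18.49% with 3 or more genes and 14.15% with none. The median cell of the library labelled AEG-1fl/fl went the other way, with 12.69% against 14.02%. Whether the cells with 3 or more genes are doublets was not tested.

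The single cells with the most Cldn4 were both in the stress-gene cluster of the library labelled AEG-1fl/fl, with 48 counts each. One had 113726 counts in all and held every duct gene, with 17 counts of Epcam, 17 of Krt7, 8 of Krt19 and 6 of Sox9. The other had 41974 counts and 259 of Krt8, 135 of Krt18, 8 of Cd24a and 96 of Spp1, but none of Epcam, Krt7, Krt19, Cldn7 or Tspan8. The hepatocyte markers took 11.3% of the counts of the former cell and 3.28% of the latter. In the median cell of that library they took 14.1% in hepatocyte-like and 3.68% in cholangiocyte-like cells. In cholangiocyte-like cells Cldn4 was the smallest part of the 6 genes, with 4.03% of their counts in the library labelled AEG-1ΔMAC. The pair was picked after its values had been seen. Of the 140 Cldn4 counts in hepatocyte-like cells there, 123 fell in the stress-gene cluster.

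The libraries were then compared by label. In cholangiocyte-like cells, 2 of the 10 genes, Krt7 and Cldn4, were over 2-fold lower in the library labelled AEG-1ΔMAC, beside 6.38% of all genes. Cldn4 stood at 32.7 CPM (24.3 to 43.1) in that library and at 87.8 CPM (78.8 to 97.6) in the library labelled AEG-1fl/fl, a log2 ratio of -1.42 (-1.88 to -0.99). Krt7 stood at 53.7 CPM (42.7 to 66.6) and 111 CPM (101 to 122), a log2 ratio of -1.05 (-1.41 to -0.71). Epcam, Krt8, Krt18, Krt19, Cd24a and Tspan8 had log2 ratios between -0.46 and -0.15, with intervals below 0. The intervals of Cldn7 (-0.38 to 0.13) and Sox9 (-0.02 to 0.28) included 0. The median of the 10 genes was -0.43, beside -0.13 over all genes.

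The choice of cells moved these values. Without cells over 3 times the median total, all 10 log2 ratios were below 0, from -2.26 for Cldn4 and -1.42 for Krt7 to -0.32 for Cldn7, and Sox9 went from 0.13 to -0.38 (-0.58 to -0.18). The hepatocyte markers still took 8.56% and 4.52% of the counts of these cells, a difference whose part in the ratios was not tested. When cells were taken by a marker gate in place of clusters (257 cells over both libraries in place of 164, with 152 in common), the median was -0.04, and Epcam (0.033), Krt19 (0.069), Tspan8 (0.34) and Cldn7 (0.41, interval 0.15 to 0.68) changed sign. The 2-fold call of Krt7 was lost with the gate (-0.46) and as a mean over cells (-0.90), while that of Cldn4 was kept (-1.09 and -1.84). A lower level of the whole group in 1 library was thus not independent of how the cells were chosen.

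**Figure D5:**
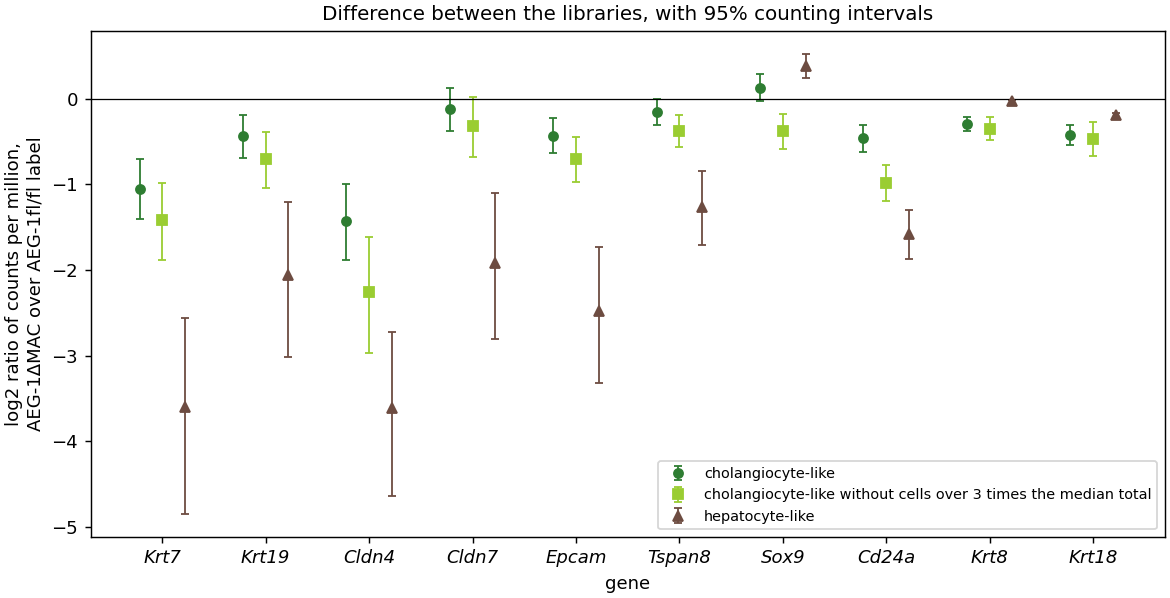
Log2 ratio of CPM, library labelled AEG-1ΔMAC over library labelled AEG-1fl/fl (vertical axis), for each of the 10 genes, with 95% counting intervals, in all cholangiocyte-like cells (dark green circles), in those without cells over 3 times the median total (light green squares) and in hepatocyte-like cells (brown triangles). Cldn4 and Krt7 lie lowest in every series, and in hepatocyte-like cells 7 genes lie below -1 while Krt8, Krt18 and Sox9 lie between -0.19 and 0.38.

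In hepatocyte-like cells, 7 of the 10 genes (Epcam, Krt7, Krt19, Cldn4, Cldn7, Cd24a and Tspan8) were over 2-fold lower in the library labelled AEG-1ΔMAC, beside 3.84% of all genes. The 6 duct genes without Sox9 had 130 counts (1.94 CPM) and 625 counts (8.91 CPM), a log2 ratio of -2.20 (-2.48 to -1.93). Krt7 had 8 and 101 counts, Epcam 17 and 99, Krt19 14 and 61, Cldn7 16 and 63 and Tspan8 64 and 161 counts. Without the cells that held 3 or more of the 6 genes the ratio was -1.62 (-1.97 to -1.28), and with cells from the marker gate it was -0.74. With the gate, 5 of the 7 calls were lost (Epcam -0.60, Krt19 -0.53, Cldn7 -0.88, Cd24a -0.69 and Tspan8 -0.17), and Krt7 (-2.21) and Cldn4 (-2.12) stayed over 2-fold lower. Cd24a also fell under the limit without the stress-gene cluster and as a mean over cells (-0.89 in both), and Tspan8 as a mean over cells (-0.99). Cldn4 had 11 and 140 counts and a log2 ratio of -3.60, which became -1.94 (-3.04 to -0.96) without the 2 cells described above. The ratio of Krt7 went from -3.59 to -3.33 (-4.59 to -2.29) without the same 2 cells. In classes that should lack them, the same 6 genes had 10 and 45 counts (2.58 and 12.5 CPM) in endothelial cell-like cells. They had 36 and 58 counts (13.6 and 16.8 CPM) in stellate cell-like and 11 and 44 counts (3.91 and 7.48 CPM) in macrophage-like cells. The cluster of cholangiocyte-like cells was smaller in the library in which the 6 genes were lower (47 against 117 cells). Whether these values set the difference was not tested.

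Sox9, Krt8 and Krt18, the members with the most counts in hepatocyte-like cells, had log2 ratios nearer to 0 between the libraries. Sox9 was higher in the library labelled AEG-1ΔMAC, 13.9 against 10.7 CPM, with a log2 ratio of 0.38 (0.24 to 0.52). Summed with Sox9, the 7 duct genes had 1061 and 1374 counts, of which Sox9 made up 931 and 749, and a log2 ratio of -0.31 (-0.42 to -0.19). Krt8 had a log2 ratio of -0.03 (-0.05 to -0.01) and Krt18 of -0.19 (-0.22 to -0.17). The number of Krt8 counts per Krt18 count was accordingly 2.18 (2.15 to 2.21) and 1.95 (1.92 to 1.97), and it was higher in the library labelled AEG-1ΔMAC in 4 of the 5 hepatocyte-like clusters, the exception being the cluster led by Cyp2f2 and Scd1 with 2.12 and 2.19.

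Among the other genes fixed for comparison, keratins were few. Of 49 other keratin genes, 4 had at least 50 counts in cholangiocyte-like or hepatocyte-like cells, and 2 of them (Krt23 and Krt80) were over 2-fold higher in cholangiocyte-like cells in both libraries. Beside this list and those below, 18.6% and 23.9% of all genes with at least 20 counts passed this limit in a single library. The share of all genes that passed in both libraries was not computed. Krt23, a type I keratin known from injured liver, had 129 and 86.3 CPM in cholangiocyte-like and 8.84 and 4.86 CPM in hepatocyte-like cells. It was higher in the library labelled AEG-1ΔMAC in both, with log2 ratios of 0.58 (0.32 to 0.84) and 0.86 (0.67 to 1.06), opposite in sign to Krt7 and Krt19. Krt80 had 4 and 39 counts, Krt10 9 and 17 and Krt20 2 and 0 counts in cholangiocyte-like cells.

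Of 29 other claudins, 8 had enough counts and 3 (Cldn3, Cldn6 and Cldn8) were over 2-fold higher in cholangiocyte-like cells in both libraries. Cldn3 stood at 291 and 391 CPM against 139 and 188 CPM in hepatocyte-like cells, so that unlike Cldn4 and Cldn7 it was shared by both epithelia. Cldn6 had 35 and 170 counts in cholangiocyte-like and 1 and 26 in hepatocyte-like cells. Cldn2, a claudin that forms cation pores, was higher in hepatocyte-like cells, at 144 and 158 CPM against 81.8 and 137 CPM. Cldn1 and Cldn12 differed by a log2 ratio of at most 0.24 in size in either library.

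Of 12 further epithelial genes, 11 had enough counts and 9 were over 2-fold higher in cholangiocyte-like cells in both libraries. Cdh1, which encodes E-cadherin, had 315 and 309 CPM against 11.3 and 30.3 CPM, and Prom1, a membrane protein of progenitor cells, 76.6 and 70.6 CPM against 0.0894 and 0.314 CPM. Grhl2 and Esrp1, regulators of epithelial genes and of epithelial splicing, had 27.5 and 27.9 CPM and 26.2 and 29.2 CPM in cholangiocyte-like cells. All 7 genes of desmosomes and keratin anchoring were measured, and 4 of them were over 2-fold higher in cholangiocyte-like cells in both libraries. Dsg2 (a desmosomal cadherin) had 465 and 573 CPM against 101 and 133 CPM, and Dsp (desmoplakin) 296 and 293 CPM against 144 and 139 CPM.

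Of the 12 genes of the Notch and YAP pathways, which are known from duct formation, 5 were over 2-fold higher in cholangiocyte-like cells in both libraries. Of all genes, 18.6% and 23.9% passed in a single library. Ccn2 was highest in endothelial cell-like or stellate cell-like, Notch2 in neutrophil-like and Heyl in stellate cell-like cells. Jag1, a Notch ligand, and Hes1, a Notch target, were highest in cholangiocyte-like cells. Jag1 had 76.6 and 90.1 CPM there, and Hes1 109 and 94.7 CPM. Between the libraries, the YAP targets Ccn2 (102 and 259 CPM) and Ccn1 (34.0 and 81.5 CPM) had log2 ratios of -1.34 (-1.60 to -1.10) and -1.26 (-1.71 to -0.83) in cholangiocyte-like cells, and the ratio of Hes1 was 0.20 (-0.07 to 0.47). In hepatocyte-like cells Ccn2 had a log2 ratio of -0.09 (-0.19 to 0.01) and Ccn1 of -0.56 (-0.63 to -0.48).

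Cholangiocyte-like cells also differed among themselves. Over cells with at least 5000 counts (35 and 92 cells), the levels of Epcam and Tspan8 had a rank correlation of 0.71 and 0.69, Krt7 and Krt19 one of 0.70 and 0.63, and Krt8 and Krt18 one of 0.65 and 0.52. Sox9 and Cldn4 had the lowest value in the library labelled AEG-1fl/fl, 0.077, and 0.20 in the other library, where Krt8 and Cldn4 had the lowest, 0.057. The cells of a library share depth differences and hepatocyte RNA, and no test was made.

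The genes most like the 7 duct genes over the 11 cell classes of both libraries (22 points, log2(CPM + 10)) were Myo5c (a myosin motor), Epn3 (an endocytic epsin), Degs2 (a sphingolipid desaturase), Ttll10 (a tubulin ligase family member) and Marveld3 (a tight junction protein), with Pearson correlations between 0.994 and 0.995. All 5 stood between 36.0 and 68.8 CPM in cholangiocyte-like and at most at 1.10 CPM in hepatocyte-like cells. Among the genes most like Krt8 and Krt18 were Hnf4a (a transcription factor of hepatocytes), Aldh8a1, Crp (C-reactive protein) and Gjb2 (connexin 26), with correlations between 0.907 and 0.926. The points share libraries and hepatocyte RNA, and these correlations are descriptions.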

How the data were processed

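The authors hybridized mouse transcriptome probes to fixed, dissociated liver cells and made the matrices with Cell Ranger 7.1.0, per the submitters' processing notes and the file headers, on the mm10 reference. The deposited values are raw counts (molecules per gene and cell of called barcodes) without normalization, and how barcodes were called is not given in the sources used here. Depth was 79589511 and 90440089 counts.

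A cell was kept with 100 or more genes and no more than 10% of its counts from mitochondrial genes, as in the study, and cells were clustered in Seurat 5.3.0 under R 4.3.3 (genes in at least 3 cells, 2000 variable genes, anchor integration, 50 components, resolution 0.5 in steps of 0.1 until at least 14 clusters, which gave 15). A cluster took the name of the markers with the highest mean log2 level against the other clusters (pseudocount 5 CPM). The members and gene lists were chosen with earlier results of these data known. Genes named besides the members are the fixed lists, keratins and claudins with at least 50 counts (values for those with the most counts) and the 5 genes most like each group among those with at least 200 counts. Anxa13, Ccnb1 and Mmrn2 of the marker lists were not analysed here, and a few genes of the lists are not reported here.

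Counts were summed per class and library with pandas 2.3.3 (Python 3.11.15, SciPy 1.17.1, NumPy 2.4.6) and divided by the class total (CPM). Intervals are 95% (Poisson for levels, exact binomial Clopper-Pearson for shares and for ratios given the summed counts) and cover counting error only, not variation between mice. A count of 0 was taken to allow 3 counts. A gene entered a background share with at least 20 counts over both groups. Thinning to 2000 counts left out shallower cells, 32 and 19 of the hepatocyte-like, and averaged 20 draws. The ratio code was tested on simulated counts. Levels of different genes are not comparable, since probes per gene differ. The alternatives were another choice of cells (marker gate, clustering with all genes, stricter cell filter, without high totals), other scalings, other zone scores and cell divisions, and, chosen after seeing the data, leaving out the stress-gene cluster, cells with 3 or more duct genes, the 2 cells with the most Cldn4, or Sox9. Figures were drawn with matplotlib 3.10.9.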

Additional observations from a re-analysis of the deposited data

Results flagged for a closer look

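The difference between the libraries had opposite signs in different cell classes for 3 of the genes, with intervals clear of 0 on both sides and at least 20 counts in each library. The difference between classes was itself not tested.

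For Krt8 the log2 ratio (AEG-1ΔMAC-labelled over AEG-1fl/fl-labelled) was above 0 in endothelial cell-like (0.16), stellate cell-like (0.48), macrophage-like (0.81), T and NK cell-like (0.48), B cell-like (1.08) and unnamed cells (0.86), and below 0 in cholangiocyte-like (-0.30) and hepatocyte-like cells (-0.030). The hepatocyte-like value was not uniform. By cluster it was 0.28 (led by Cyp2f2), 0.22 (Nr1i3), 0.24 (Sprr1a), 0.023 (Sds, interval including 0) and -0.26 (Slc1a2). Its sign also changed with the marker gate and as a mean over cells. Krt18 was above 0 in stellate cell-like (0.48), macrophage-like (0.62), B cell-like (1.55) and unnamed cells (0.60), and below 0 in cholangiocyte-like (-0.42), hepatocyte-like (-0.19) and low-count macrophage-like cells (-0.27). The hepatocyte markers stood at 49.3% and 32.8% of the hepatocyte-like level in macrophage-like, 71.2% and 50.4% in stellate cell-like and 60.5% and 62.0% in B cell-like cells, and their part in the keratin ratios was not tested. Cd24a was above 0 in the unnamed cluster (0.79) and below 0 in cholangiocyte-like (-0.46) and hepatocyte-like cells (-1.58).

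The cells left out by the filter, 10 and 27, held 4 and 5 counts of the 7 duct genes, or 37.8 and 13.96 CPM, above what a count of 0 allows (28.4 and 8.38 CPM).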

How the results depend on the processing

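No paired analysis was possible because each genotype had 1 library, and for the same reason no library could be left out. The median log2 ratio of cholangiocyte-like over hepatocyte-like cells (8.03 and 6.13) was above 0 under every alternative run. It became 7.34 and 6.38 with cells from the marker gate, 9.80 and 7.18 without cells over 3 times the median total and 9.17 and 6.81 as a mean over cells. For the library labelled AEG-1fl/fl it became 6.75 when all genes entered the clustering and 7.05 without the stress-gene cluster.

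The median between libraries in cholangiocyte-like cells (-0.43) became -0.040 with the gate, -0.48 with all genes in the clustering and -0.59 without cells over 3 times the median total. Of the single genes, Epcam (0.033), Krt19 (0.069), Tspan8 (0.34) and Cldn7 (0.41) changed sign with the gate, Krt8 (0.018) as a mean over cells and Sox9 (-0.38) without high totals. With the gate, Krt7 became -0.46, Cd24a -0.11, Krt18 -0.67, Krt8 -0.58 and Sox9 0.64.

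For hepatocyte-like cells, the 6 duct genes without Sox9 (-2.20) gave -2.51 with the stricter filter (500 or more genes, no more than 5% of counts mitochondrial), -0.74 with the gate, -1.79 with all genes in the clustering, -2.84 without cells over 3 times the median total, -1.90 without the stress-gene cluster and -1.57 without cells that held 3 or more of the 7 duct genes. With Sox9 (-0.31), the sum gave 0.046 with the gate and 0.19 without those cells, so its direction was not stable, and -0.14, -0.66 and -0.063 with all genes, without high totals and without the stress-gene cluster. The median of its members was -2.06.

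Krt8 between libraries (-0.030) became -0.013 with the stricter filter, 0.021 with the gate, 0.014 as a mean over cells, -0.076 without high totals and -0.011 without cells that held 3 or more duct genes. Krt18 (-0.19) became -0.15 with the gate, -0.14 as a mean over cells and -0.15 without those cells.

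The share of hepatocyte-like cells with at least 2 duct genes (2.83% and 8.28%) fell to 0.00725% and 0.232% after thinning, to 1.05% and 3.49% without high totals and to 0.632% and 1.20% without cells that held at least 2 cholangiocyte markers, and was 6.49% in the library labelled AEG-1fl/fl without the stress-gene cluster.

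The median of the members between the tertiles in the library labelled AEG-1fl/fl (0.34) became -0.067 without the stress-gene cluster and 0.16 with a score from Cyp2e1 and Cyp2f2. Krt18 changed sign in both libraries without that cluster (-0.17 and -0.052) and with that score (-0.30 and -0.10), and Krt8 in the library labelled AEG-1ΔMAC (-0.011 and -0.11). The causes were not tested. Of the values under all alternatives, 36 for the main comparisons and 94 for single genes stayed within counting error of the reported ones, 35 and 38 moved beyond it in the same direction or without a call, and 5 and 10 changed sign from a called value. The depth of Krt7, Krt19 and Cldn4 in the hepatocytes under the label AEG-1ΔMAC (8 to 14 counts) limits their ratios.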
